A study of Homo sapiens with 4 samples.

Results

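The genes described here encode the building blocks of the extracellular matrix: collagens, laminins, fibronectin, fibulins, fibrillins, thrombospondins, tenascins, matrilins, small proteoglycans and the lysyl oxidases that cross-link them. They were chosen by symbol, and each gene was read from its brightest probe. The symbols matched 39 of the 14680 named genes on the arrays, and 32 of these encode matrix proteins or their cross-linking enzymes. The other 7 are antisense transcripts (COL18A1-AS1, COL18A1-AS2, COL4A2-AS1, LOXL1-AS1, LOXL2-AS1 and MATN1-AS1) and LOXHD1, which only shares the start of its symbol with the lysyl oxidases. Of the 39, 38 were named by the annotation of the array, and COL12A1 was named only by the study's table of genes lower on these arrays. The direction of COL12A1 was therefore fixed by how it was named, and its values are a description. No laminin chain and no collagen other than COL12A1 and COL26A1 had a named probe, so these were not analysed here.

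RNA was measured on 4 Affymetrix arrays of T47D cells, an established line of estrogen receptor positive breast ductal carcinoma, grown in RPMI-1640 with fetal bovine serum. The 2 shControl arrays carried cells with a control hairpin. The 2 FDXR sh434 arrays carried cells with a hairpin against FDXR, the mitochondrial ferredoxin reductase that passes electrons from NADPH to ferredoxin. Both groups had been infected with a hairpin virus, a retrovirus in the labels and a lentivirus in the methods, and 1 hairpin was used, so an effect of its sequence on other transcripts cannot be told apart from that of FDXR. The labels call the arrays biological replicates but name no separate infections, so p-values measure the spread between these arrays. The source names of 3 arrays give other cell line names, while the growth text of all 4 names T47D. FDXR has no named probe, and its knockdown was not analysed here.

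The matrix is the protein scaffold outside cells. Collagens bear tension, fibronectin and the laminins are gripped by integrin receptors, fibulins and fibrillins build elastic fibres, and matrilins and thrombospondins link other components or bind cells. Epithelial cells chiefly lay down basement membrane, while fibroblasts make most of the fibrillar matrix of a breast tumour. Fibronectin and versican are commonly made by mesenchymal cells, and lumican and decorin are small leucine-rich proteoglycans that set the spacing of collagen fibrils.

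In FDXR sh434 cells, LUM, MATN3 and EFEMP1 fell and FN1 rose. LUM (lumican) fell 3.64-fold, MATN3 (matrilin-3, of cartilage matrix) 3.23-fold and EFEMP1 (fibulin-3) 1.92-fold. FN1 (fibronectin) rose 2.31-fold. Of the 31 genes other than COL12A1, these 4 passed the limma test at an adjusted p of 0.05, with 1 higher and 3 lower, and 27 did not. COL12A1 (the chain of collagen XII, which sits on the surface of collagen fibrils) was 2.10-fold lower, which its choice had fixed, and is counted apart. Over all 38598 probes the same test called 0.298% higher and 0.402% lower. For each of the 27 genes that did not pass the 95% interval of the change lay within 2-fold in either direction.

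Promoters are shown for 3 of these 5 genes, those that had one in the RefSeq table (GRCh38.p14), so that the gene that rose can be set beside MATN3, which fell, and COL12A1. Each runs from 250 bases before to 50 bases after the annotated start, on the gene's strand. Capitals mark matches on either strand to 6 motifs. The GC box was searched as GGGCGG, the CCAAT box by the letters of its name, and the TATA box as TATAAA. The cAMP response element was searched as TGACGTCA and the AP-1 site as TGANTCA, which no run of the former can match. The E-box was searched as CACGTG. Neighbouring GC boxes may overlap.
FN1, chr2:215436019-215436318, minus strand: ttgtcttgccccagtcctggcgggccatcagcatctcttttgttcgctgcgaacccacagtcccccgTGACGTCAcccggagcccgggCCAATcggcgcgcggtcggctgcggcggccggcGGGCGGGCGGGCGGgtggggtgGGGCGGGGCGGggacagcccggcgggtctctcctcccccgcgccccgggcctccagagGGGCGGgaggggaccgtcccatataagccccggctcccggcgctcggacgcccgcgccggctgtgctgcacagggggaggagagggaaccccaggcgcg
MATN3, chr2:20012619-20012918, minus strand: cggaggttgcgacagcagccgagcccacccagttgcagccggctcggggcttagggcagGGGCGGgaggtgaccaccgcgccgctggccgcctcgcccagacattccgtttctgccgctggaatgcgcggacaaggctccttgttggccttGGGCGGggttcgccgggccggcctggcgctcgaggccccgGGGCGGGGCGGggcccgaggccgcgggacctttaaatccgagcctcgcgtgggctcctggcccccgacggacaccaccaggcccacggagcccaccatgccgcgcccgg
COL12A1, chr6:75206004-75206303, minus strand: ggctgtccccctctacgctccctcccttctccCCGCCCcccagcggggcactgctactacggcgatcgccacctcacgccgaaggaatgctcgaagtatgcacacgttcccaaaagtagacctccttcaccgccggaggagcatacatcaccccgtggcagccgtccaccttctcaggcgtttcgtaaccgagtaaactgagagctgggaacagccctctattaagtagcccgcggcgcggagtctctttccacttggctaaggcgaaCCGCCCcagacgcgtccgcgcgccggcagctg

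The FN1 window held 8 matches: 6 GC boxes, 1 CCAAT box and 1 cAMP response element that begins at position -183, counted from the start site. MATN3 held 4 GC boxes and COL12A1 held 2. The cAMP response element occurred in 1.98% of 27305 promoters of the same length and, of the 27 matrix genes with a promoter, only in FN1. The GC box was in 44.6% of all promoters and in 19 of the 27 (70.4%). The CCAAT box was in 35.7% of all and in 8 of the 27, the TATA box in 12% and in 2, the E-box in 7.43% and in 2, and the AP-1 site in 7.76% and in 0. The windows were rich in CG dinucleotides, with 38 in FN1, 36 in MATN3 and 29 in COL12A1, against medians of 26 over the 27 and 14 over all promoters. A match is a stretch of letters and not a measured site.

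Across the 31 genes other than COL12A1, 22 changes were negative and 9 positive, and the median log2 fold change was -0.14, against 0.0041 over all probes and 0.028 over named probes. Both FDXR sh434 arrays lay below both shControl arrays for 15 of the 31 (48.4%) and above them for 6 (19.4%), and the groups overlapped for 10. Over all probes these shares were 23.1% below and 25.6% above. At an unadjusted p of 0.05, 6 of the 31 were lower and 2 higher, while 7.82% of all probes were lower and 9.44% higher. Only 2 arrays stood in each group, and the limma fit called 0 probes when any 1 array was left out, with 3839 to 6823 probes still at an unadjusted p under 0.05.

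The spread between arrays depended on signal, with a median residual SD of 0.162 in the dimmest of 4 equal bins of probes and 0.0728 in the brightest. When limma was allowed to fit this trend, with robust estimation, 6 of the 31 genes passed as lower and 1 as higher. Over all probes, 3.41% were lower and 5.02% higher in that fit. Those shares cover probes of every signal, whereas 26 of the 32 matrix probes lay above the median probe. They are not matched for signal. The 3 added genes were EFEMP2, FBLN5 and THBS1. LUM, MATN3, EFEMP1 and FN1 passed this fit also without any 1 of the 4 arrays, whereas EFEMP2 and FBLN5 passed it only without shControl replicate 1, and THBS1 passed it only when 1 of the shControl replicates was left out.

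**Figure D1:**
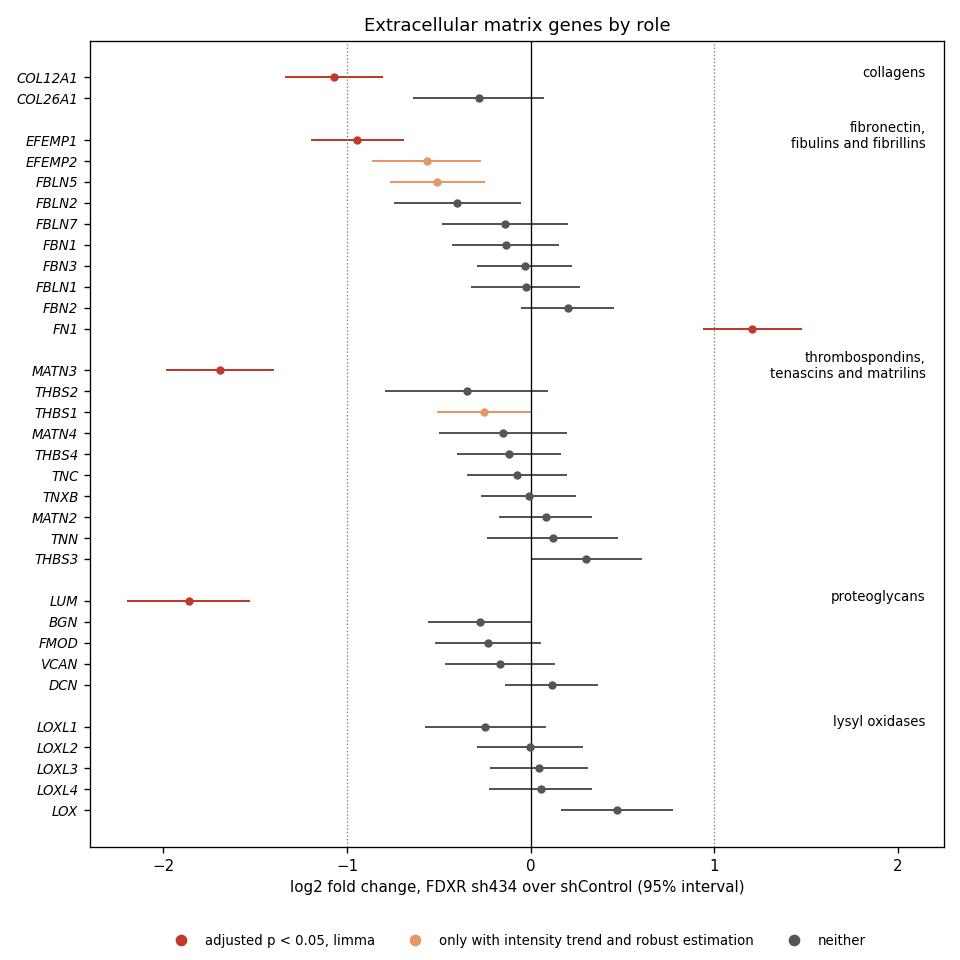
Log2 fold change of the 32 matrix genes, FDXR sh434 over shControl, grouped by role. Points are the fitted values of the brightest probe and bars their 95% intervals (n = 2 arrays per group), with dotted lines at a 2-fold change. LUM, MATN3, COL12A1 and EFEMP1 lie to the left of 0 and FN1 to the right, while the 27 others stay within the dotted lines.

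Collagens were represented by COL12A1 and COL26A1. The COL12A1 signal was 9.95 and 9.87 (log2) in shControl and 8.89 and 8.79 in FDXR sh434. The groups were about 1 log2 unit apart and the arrays within each group were close together. Its means were 9.91 ± 0.054 and 8.84 ± 0.067 (SD, n = 2), and the log2 fold change was -1.07 (SE 0.107). No test is given, because the gene entered through a list of genes lower on these arrays. COL26A1, an emilin-related collagen, read 5.79 and 6.13 in shControl and 5.70 and 5.65 in FDXR sh434. Its change of -0.28 (SE 0.143) did not pass (limma adjusted p = 0.385), and its 95% interval ran from -0.64 to 0.07.

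FN1, the fibronectin gene, was the matrix gene that limma called higher, both with and without the trend. Its log2 signal was 6.06 for both shControl replicates, while FDXR sh434 read 7.20 and 7.33. The 2 control arrays could not be told apart at this rounding, and both FDXR sh434 arrays stood above them by over 1 log2 unit. The means were 6.06 ± 0.0032 and 7.27 ± 0.087 (SD, n = 2), giving a log2 fold change of 1.21 (SE 0.107, 95% interval 0.94 to 1.48, limma adjusted p = 0.0258).

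EFEMP1 encodes fibulin-3, a secreted glycoprotein with EGF-like repeats. Its signal was 10.64 and 10.63 in shControl and 9.67 and 9.71 in FDXR sh434. The spread within each group was small beside the gap between the groups. Group means were 10.64 ± 0.013 and 9.69 ± 0.028 (SD, n = 2), and the log2 fold change was -0.94 (SE 0.101, limma adjusted p = 0.0359).

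The fibulins form a small family, and the short members are fibulin-3 (EFEMP1), fibulin-4 (EFEMP2) and fibulin-5 (FBLN5). Fibulin-4 and fibulin-5 take part in elastic fibre assembly. All 3 passed the limma test with the intensity trend as lower, and EFEMP1 alone passed without it. Of all probes, 3.41% were lower with the trend and 0.402% without it. EFEMP2 read 5.87 and 5.91 in shControl and 5.43 and 5.23 in FDXR sh434, a change of -0.57 (SE 0.119, limma adjusted p = 0.108, or 0.0236 with the trend). FBLN5 read 5.70 and 5.76 in shControl and 5.25 and 5.20 in FDXR sh434, a change of -0.51 (SE 0.103, limma adjusted p = 0.102, or 0.0312 with the trend). In both genes each FDXR sh434 array lay below each shControl array.

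The long fibulins FBLN1 and FBLN2, found in basement membranes and elastic fibres, and the cell adhesion protein FBLN7 did not pass in either fit. FBLN2 read 5.14 and 5.05 in shControl and 4.54 and 4.84 in FDXR sh434, with a change of -0.40 (limma adjusted p = 0.237). FBLN1 and FBLN7 changed by -0.03 and -0.14, and their arrays overlapped between the groups. All 6 fibulins had a negative value, with a median of -0.45, but FBLN1 and FBLN7 turned positive when 1 array was left out.

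Fibrillins form the microfibrils on which elastin is laid. Their changes were -0.14 for FBN1, 0.20 for FBN2 and -0.03 for FBN3, and none passed in either fit. The probes of FBN1 and FBN2 were dim, at mean signals of 3.54 and 3.61 against a median probe at 4.76. In the whole group of fibronectin, fibulins and fibrillins, limma called 1 of 10 genes higher and 1 lower. With the trend it called 1 higher and 3 lower. The shares of all probes were 0.298% higher and 0.402% lower, or 5.02% and 3.41% with the trend. The median of the group was -0.14.

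**Figure D2:**
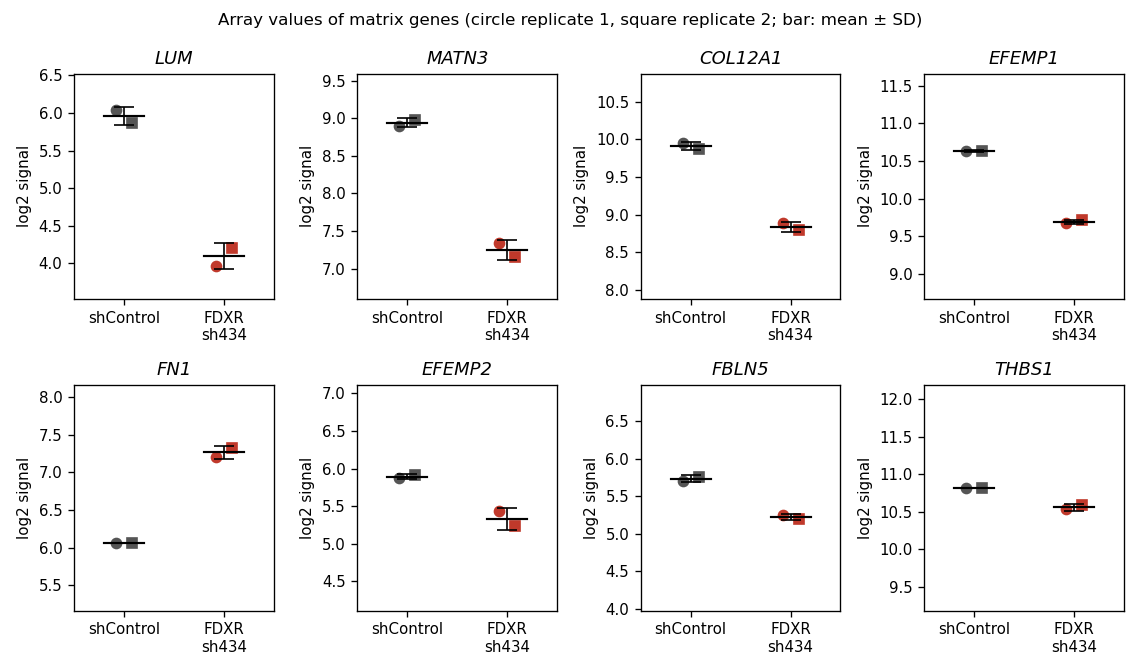
Log2 signal of 8 matrix genes on each of the 4 arrays, with shControl in grey and FDXR sh434 in red. Bars are the group mean and SD (n = 2), every panel spans the same number of log2 units, and circles and squares are replicates 1 and 2. LUM went from 5.95 to 4.09 and FN1 from 6.06 to 7.27, while THBS1 moved by -0.26.

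Matrilin-3, a bridging protein best known from growth plate cartilage, had the second largest change among the matrix genes. MATN3 read 8.90 and 8.98 in shControl and 7.34 and 7.16 in FDXR sh434. No array of one group came within 1 log2 unit of the other group. The means of 8.94 ± 0.063 and 7.25 ± 0.13 (SD, n = 2) gave a log2 fold change of -1.69 (SE 0.118, 95% interval -1.99 to -1.40, limma adjusted p = 0.0205). The other matrilins did not pass: MATN2 changed by 0.08 and MATN4 by -0.15, both with intervals that include 0.

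Thrombospondins are secreted proteins that bind matrix, growth factors and cell surfaces. THBS1, which also inhibits angiogenesis and can activate latent TGF-beta, was read by the brightest of the matrix probes. It was 10.82 and 10.81 in shControl and 10.53 and 10.59 in FDXR sh434. The groups did not overlap, but the change was small, at -0.26 (SE 0.102), with a limma adjusted p of 0.291, or 0.0118 with the trend. THBS3 read 6.99 and 6.81 in shControl and 7.28 and 7.13 in FDXR sh434, a change of 0.30 (limma adjusted p = 0.291). THBS2 and THBS4 changed by -0.35 and -0.12 and did not pass in either fit. The THBS2 value leaned on FDXR sh434 replicate 2, which read 4.52 beside 4.98 in replicate 1, and without it the change was -0.12.

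Tenascins are large glycoproteins that modulate adhesion. TNC, tenascin-C of tumour stroma, changed by -0.07 at a dim mean signal of 3.74, and TNN by 0.12. TNXB had 8 probes, whose changes ran from -0.14 to 0.10, and its brightest changed by -0.01. TNXB shares near-identical sequence with the pseudogene TNXA, so its probes may read both. Over the 10 thrombospondins, tenascins and matrilins, 1 was lower and 0 higher in limma, or 2 lower and 0 higher with the trend, and at an unadjusted p of 0.05 the counts were also 1 lower and 0 higher. Their median was -0.094. The shares of all probes were 0.298% higher and 0.402% lower in limma, or 5.02% and 3.41% with the trend. At an unadjusted p of 0.05 in limma these shares were 9.44% and 7.82%.

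LUM had the largest change of the 32 genes. Its signal was 6.04 and 5.87 in shControl and 3.97 and 4.21 in FDXR sh434. The control arrays stood above the median probe and the FDXR sh434 arrays below it, and the deposited values do not give the background of the probe. The means were 5.95 ± 0.12 and 4.09 ± 0.17 (SD, n = 2), which gave a log2 fold change of -1.86 (SE 0.134, 95% interval -2.20 to -1.53, limma adjusted p = 0.0213).

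The other proteoglycans gave smaller values, and none passed in either fit. BGN (biglycan), of the same small leucine-rich family, read 6.38 and 6.50 in shControl and 6.10 and 6.22 in FDXR sh434, a change of -0.28 (limma adjusted p = 0.294). FMOD (fibromodulin) read 5.52 and 5.40 in shControl and 5.30 and 5.16 in FDXR sh434, a change of -0.23 (limma adjusted p = 0.38). For both genes the groups did not overlap. DCN (decorin) changed by 0.11 at a mean signal of 2.20, the dimmest of the matrix probes. VCAN (versican), a large hyaluronan-binding proteoglycan, had 2 probes that changed by -0.17 and 0.14. Over the 5 proteoglycans 1 was lower and 0 were higher in limma, with and without the trend and at an unadjusted p of 0.05. The shares of all probes were 0.402% lower and 0.298% higher, or 3.41% and 5.02% with the trend. At the unadjusted p they were 7.82% and 9.44%. The median of the 5 was -0.23.

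LUM lies on chromosome 12 in a cluster of leucine-rich proteoglycan genes, with KERA and EPYC on one side and DCN on the other in the RefSeq order. EPYC (epiphycan) read 3.26 and 3.06 in shControl and 3.03 and 3.20 in FDXR sh434, a change of -0.04. KERA (keratocan) read 1.88 and 1.78 in shControl and 1.95 and 1.94 in FDXR sh434, a change of 0.12, close to that of DCN. Of the 4 genes of this cluster only LUM passed, and the 3 others had dim probes on all arrays, on which a lower level may not be measurable.

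**Figure D3:**
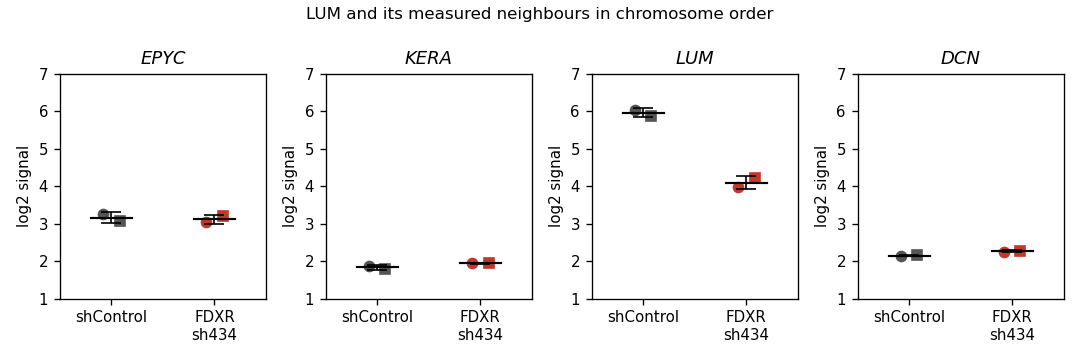
Log2 signal of LUM and its measured neighbours EPYC, KERA and DCN on each of the 4 arrays, in chromosome order on a common axis. Bars are the group mean and SD (n = 2), with circles and squares for replicates 1 and 2. LUM fell by 1.86 on the log2 scale, while the 3 others changed by -0.04, 0.12 and 0.11.

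Lysyl oxidases oxidise lysines of collagen and elastin, which starts their cross-linking. LOX, the founding member, read 4.74 and 4.55 in shControl and 5.17 and 5.06 in FDXR sh434. Both FDXR sh434 arrays stood above both shControl arrays, and the change was 0.47 (SE 0.121, limma adjusted p = 0.152, or 0.0866 with the trend). When probes below the median signal were left out of the test, LOX passed with a limma adjusted p of 0.038. LOXL1, which acts on elastic fibres, read 5.86 and 6.12 in shControl and 5.70 and 5.79 in FDXR sh434, a change of -0.25 (limma adjusted p = 0.41). LOXL4 read 5.43 and 5.57 in shControl and 5.58 and 5.52 in FDXR sh434, a change of 0.05 (limma adjusted p = 0.848). LOXL2 and LOXL3 changed by -0.0028 and 0.05, and the arrays of all 3 overlapped between the groups. Of the 5 enzymes limma called 0, also with the trend, and at an unadjusted p of 0.05 it called 1 higher, which was LOX. The shares of all probes were 0.298% higher and 0.402% lower, or 5.02% and 3.41% with the trend. At the unadjusted p they were 9.44% and 7.82%.

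**Figure D4:**
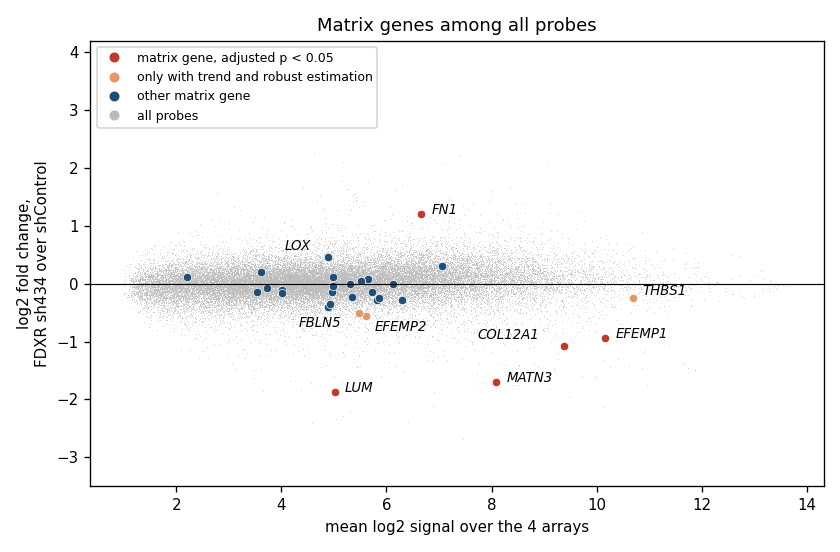
Log2 fold change, FDXR sh434 over shControl, against the mean log2 signal over the 4 arrays for all 38598 probes (grey) and the 32 matrix genes (coloured). Red points were past an adjusted p of 0.05 in limma (COL12A1, named for being lower, among them) and orange points only with the intensity trend and robust estimation. LUM passed at a mean signal of 5.02 and EFEMP1 at 10.16, while 6 matrix genes, none of which passed, lay below the median probe at 4.76.

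Of the 32 matrix probes, 6 lay below the median probe and 26 above it. LUM, MATN3, EFEMP1 and FN1 were all among the 26, and limma called 0 of the 6 with or without the trend and at an unadjusted p of 0.05. The 7 transcripts that encode no matrix protein changed by -0.29 to 0.24, and limma called 0 of them with or without the trend and at an unadjusted p of 0.05.

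Genes that process, anchor or bind the matrix were read from further lists. Beside the counts of each list stand these shares over all probes. Limma called 0.298% higher and 0.402% lower, or 5.02% and 3.41% with the trend. At an unadjusted p of 0.05, 9.44% were higher and 7.82% lower. Both FDXR sh434 arrays lay above both shControl arrays for 25.6% and below them for 23.1%. Of 29 listed genes of collagen biosynthesis and processing, 12 were measured, and limma called 0, or 1 higher with the trend. At an unadjusted p of 0.05, 2 were higher and 1 lower, and the median was -0.078. The gene called with the trend was P3H4, a partner of the collagen lysyl hydroxylase complex, which read 7.22 and 7.32 in shControl and 7.67 in both FDXR sh434 replicates (change 0.40, limma adjusted p = 0.157, or 0.0153 with the trend). The brightest of the list, PPIB and CRTAP, which serve procollagen folding and prolyl 3-hydroxylation, each changed by -0.08.

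Basement membrane and pericellular partners had 15 of 21 genes measured, with 0 called by limma. With the trend 1 was higher and 1 lower, at an unadjusted p of 0.05 1 was higher and 2 were lower, and the median was -0.095. NTN4, a netrin with laminin-like domains, read 6.90 and 6.94 in shControl and 7.57 and 7.49 in FDXR sh434 (change 0.61, limma adjusted p = 0.0781, or 0.00237 with the trend). FREM2, which anchors epithelia to their basement membrane, read 4.73 and 4.77 in shControl and 4.19 and 4.03 in FDXR sh434 (change -0.64, limma adjusted p = 0.0804, or 0.0294 with the trend). AGRN (agrin, a heparan sulfate proteoglycan) and PXDN (peroxidasin, which cross-links collagen IV) were the brightest of the list and changed by -0.14 and -0.25 without passing.

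Elastic fibre and matricellular proteins had 43 of 49 genes measured, and limma called 0 with or without the trend. At an unadjusted p of 0.05, 1 was higher and 2 were lower, and the median was 0.032. The brightest genes of the list, MFAP1 and LTBP1, changed by 0.29 and 0.25 without passing. Whether MFAP1 has a part in the matrix was not tested, so its value is not read as one of elastic fibres. LTBP1 binds latent TGF-beta in the matrix.

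Receptors of collagen, laminin and fibronectin had 13 of 30 genes measured, with 0 called by limma. With the trend 2 were higher and 1 lower, at an unadjusted p of 0.05 3 were higher and 3 lower, and the median was 0.059. CD44, the hyaluronan receptor, read 7.46 and 7.39 in shControl and 8.04 and 8.07 in FDXR sh434 (change 0.63, limma adjusted p = 0.0731, or 0.00119 with the trend). SDC2 (syndecan-2), a heparan sulfate proteoglycan of the cell surface, read 7.63 and 7.62 in shControl and 8.02 and 8.03 in FDXR sh434 (change 0.40, limma adjusted p = 0.143, or 0.00863 with the trend). SDC4 (syndecan-4), a fibronectin co-receptor, read 10.92 and 10.88 in shControl and 10.45 and 10.36 in FDXR sh434 (change -0.50, limma adjusted p = 0.108, or 0.000518 with the trend). In each of these 3 genes the arrays of the groups did not overlap, while BCAM, a laminin receptor, changed by -0.26 and did not pass.

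Markers of cell types were read on the same arrays. The 8 measured of 12 luminal breast epithelium markers had mean log2 signals of 6.57 to 11.17, and their linear signals summed to 8806 to 9160 in shControl and 9498 to 9622 in FDXR sh434. Limma called 0 of them, or 2 higher (KRT18 and SPDEF) and 0 lower with the trend. At an unadjusted p of 0.05, 2 were higher and 1 lower. The marker lower at that p was ESR1, which changed by -0.37 (limma adjusted p = 0.236, or 0.0513 with the trend). Among the 8, 4 changes were positive and 4 negative, with a median of 0.014. The 9 measured of 14 fibroblast and mesenchymal markers had mean log2 signals of 3.37 to 5.38 and summed to 237.6 to 238.1 in shControl and 221.6 to 240.4 in FDXR sh434, so their summed range in FDXR sh434 held that of shControl. None of the 9 was called by limma with or without the trend or at an unadjusted p of 0.05, and the same held for the 5 measured of 8 basal and 5 of 7 endothelial markers. No marker probe was at 0, and levels of different probes cannot be ranked. The part of the higher luminal sum in the matrix values was not tested. Since a signal is an average over a culture, fewer cells with a transcript and less of it in each cell cannot be told apart.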

How the data were processed

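RNA of 2 shControl and 2 FDXR sh434 cultures was measured on Affymetrix arrays. The authors deposited log2 signals per probe. Their processing notes name limma 3.50.3. The summary of probes and the normalization between arrays are not given in the sources. The medians of the arrays lay between 4.76 and 4.78, and Pearson's r was 0.991 and 0.994 within groups and 0.987 to 0.988 between them. Without scanner values the signal over background is unknown. Precision is limited by the 4 arrays. Of 38598 probes, 15715 had 1 gene symbol in the annotation and count as named. The other 22883 had no symbol or more than 1 and were left unnamed, except that of COL12A1.

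The deposited log2 values were fitted in R 4.3.3 by limma 3.58.1 (lmFit, then eBayes), with the group as the only term, no trend and no filter. P-values are two-sided and Benjamini-Hochberg adjusted over all 38598 probes at a threshold of 0.05. The fit had 2 residual and 3.45 prior degrees of freedom. Where a gene had several probes, the one with the highest mean over the 4 arrays was used. The matrix genes described in full are those past the threshold in this fit or in that with an intensity trend and robust estimation, the 2 brightest of each role group and the 1 with the largest change. Other lists were to give up to 4 genes that passed, with the 2 brightest of the rest. No gene of those lists passed, so P3H4, NTN4, FREM2, CD44, SDC2, KRT18 and SPDEF were named for passing with the trend. ESR1 was named as the luminal marker lower at an unadjusted p of 0.05. These genes and the members of the cluster around LUM were named after their values were seen. The remaining matrix genes are given in brief for completeness. The genes and lists were chosen with earlier results of these data known. The scripts were run on simulated data with 200 changed probes, all at or above the median signal. Those changes were 2-fold or more, so smaller changes and changes in dim probes were not simulated. Promoters were read with Python 3.11.15 from the RefSeq table of GRCh38.p14, which held 27 of the 32 genes, and figures were drawn with matplotlib 3.10.9. Alternatives were the trend with and without robust estimation, a replicate block, median centring, quantile normalization, no dim probes, named probes only, the mean over the probes of a gene, the methods' t-test and each array left out.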

Additional observations from a re-analysis of the deposited data

How the results depend on the processing

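The counts of matrix genes here include COL12A1, which was named for being lower on these arrays. It is left out of the statements on single genes, because its choice had fixed its direction. LUM, MATN3, EFEMP1 and FN1 kept their direction under every alternative run. They passed with the intensity trend, with and without robust estimation, and with quantile normalization and median centring. They also passed with no dim probes, named probes only and the mean over the probes of a gene. None passed with the replicate block, the adjusted methods' t-test or the plain fit without any 1 array. With 1 array left out, the log2 fold change ran from -1.985 to -1.742 for LUM and from -1.785 to -1.601 for MATN3. It ran from -0.963 to -0.923 for EFEMP1 and from 1.147 to 1.27 for FN1. The replicate block called 0 probes and 0 matrix genes in each direction, with 6268 probes at an unadjusted p of 0.05. The deviations of same-numbered arrays correlated at 0.00196 over all probes. That value alone cannot decide whether the replicate numbers pair the arrays, and the labels name no pairing.

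Over all probes, the higher and lower counts of 115 and 155 became 1937 and 1318 with the trend and robust estimation, 1957 and 1315 with the trend alone, 1546 and 995 without dim probes, 390 and 298 among named probes only, and 0 and 0 with the adjusted methods' t-test (3122 and 2246 at its unadjusted threshold). With the trend, robust estimation and 1 array left out, an alternative chosen after seeing the data, they became 2466 and 1449 without shControl replicate 1, 2158 and 1656 without shControl replicate 2, 294 and 347 without FDXR sh434 replicate 1, and 347 and 364 without FDXR sh434 replicate 2. Matrix genes called lower went from 4 to 7 with the trend (with or without robust estimation, and without shControl replicate 1, where 2 were higher). Without dim probes 2 were higher and 6 lower, and among named probes only 1 was higher and 5 were lower. The adjusted methods' t-test called 0 higher and 0 lower, and its unadjusted threshold 4 higher and 7 lower. The median change of the matrix genes was -0.19 without dim probes and -0.19 to -0.079 with 1 array left out. The cause of these differences was not tested.

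Values near 0 changed sign in 6 genes that were never called. FBLN1 ranged from -0.13 to 0.074 with 1 array left out (0.074 without shControl replicate 2 and 0.0032 without FDXR sh434 replicate 1, with the trend too), FBLN7 from -0.29 to 0.013, TNN from -0.035 to 0.27, TNXB from -0.043 to 0.021 (0.0019 without FDXR sh434 replicate 2), LOXL2 from -0.099 to 0.093 and LOXL4 from -0.018 to 0.13. LOXL2 was 0.0036 after median centring.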

Other observations

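Neighbours of the matrix genes past the threshold with or without the trend were read, a choice made after the values were seen. They are the 2 nearest protein-coding genes on each side in the RefSeq gene order. Those without a named probe were left out and not replaced. Beside MATN3 on chromosome 2, LAPTM4A, a lysosomal membrane protein gene, fell from 10.86 ± 0.090 to 10.00 ± 0.014 (SD, n = 2), with a log2 fold change of -0.86 and a limma adjusted p of 0.0496. WDR35, on the other side of MATN3, changed by -0.46 (limma adjusted p = 0.129, or 0.0205 with the trend), and TTC32 and SDC1 changed by -0.13 and 0.14. Beside FN1, MREG changed by 0.55 (limma adjusted p = 0.0915, or 0.00449 with the trend), PECR by 0.47 (0.191, or 0.0446 with the trend) and ATIC by 0.10. Near COL12A1, TMEM30A, a subunit of lipid flippases, changed by -0.67 (limma adjusted p = 0.0653, or 0.000193 with the trend), while COX7A2 and CD109 changed by 0.04 and -0.01. Beside EFEMP1, PNPT1 changed by -0.43 (limma adjusted p = 0.231, or 0.0399 with the trend) and CCDC85A by -0.34. Next to EFEMP2, which was lower with the trend, FIBP changed by 0.49 (limma adjusted p = 0.128, or 0.00654 with the trend), and MUS81, CTSW and CFL1 by 0.17, 0.09 and -0.0035. Next to FBLN5, also lower with the trend, TRIP11 changed by 0.44 (limma adjusted p = 0.159, or 0.00654 with the trend), ATXN3 by 0.33 and CATSPERB by 0.17. Next to THBS1, RASGRP1, FSIP1 and GPR176 changed by 0.03, 0.01 and -0.07. Of all these neighbours and those of LUM, LAPTM4A alone passed without the trend. With it, LAPTM4A, WDR35, TMEM30A and PNPT1 passed as lower and MREG, PECR, FIBP and TRIP11 as higher. Over all probes limma called 0.298% higher and 0.402% lower, or 5.02% higher and 3.41% lower with the trend. Those shares cover probes of every signal and are not matched to the neighbours, all measured ones of which are named here or with LUM. Whether neighbours passed more often than other probes was not tested.

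The limits of these values are 2 arrays in each group, 1 hairpin, no measure of background and probes named for part of the genes only. The laminins and most collagens were not analysed here, so nothing can be said of them.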
